A study of Homo sapiens with 8 samples.

Results

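CYP24A1 and the genes of the receptor that controls it, VDR, RXRA and RXRB, were followed in colorectal cancer cells with and without knockdown of NAT10, the RNA acetyltransferase that the study examined. These are 4 of the 17309 genes in the deposited table. CYP24A1 was chosen by its summed read counts, which were lower after the knockdown in both cell lines, and the 3 receptor genes were added for their role, to ask whether the receptor moved as well. The cells were the human colorectal cancer lines SW480 and DLD-1, both established, infected with lentivirus carrying a control hairpin (shControl, labelled wild type) or a hairpin against NAT10 (shNAT10), with 2 libraries in each of the 4 groups. All groups were grown in DMEM with fetal bovine serum, and the labels name no vitamin D treatment. The labels call the replicates biological but do not describe separate infections, so the p-values measure the spread between these libraries. They also do not say which NAT10 hairpin was sequenced.

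Calcitriol, the hormone form of vitamin D, binds VDR, a nuclear receptor that pairs with a retinoid X receptor (RXRA, RXRB or RXRG) on vitamin D response elements and recruits coactivators in place of corepressors. CYP24A1 is the mitochondrial cytochrome P450 that hydroxylates calcitriol and its precursor for degradation, and it is among the most strongly induced VDR target genes, which makes it a feedback brake on the hormone. In the intestine the receptor drives calcium uptake and differentiation of the epithelium, and CYP24A1 is often raised in colorectal tumors. RXRG was not analysed here. In the RefSeq annotation of GRCh38.p14, CYP24A1 (Entrez gene 1591) lies on the reverse strand at chr20:54143538-54173986, VDR (7421) on the reverse strand at chr12:47841537-47904994, RXRA (6256) on the forward strand at chr9:134326455-134440585 and RXRB (6257) on the reverse strand at chr6:33193588-33200853. In the GENCODE release 29 annotation, RXRB shares 244 bases with SLC39A7, a zinc transporter gene on the opposite strand, and VDR lies across antisense transcripts that the table does not count. The sources do not state whether counting used strand, so reads of such shared bases cannot be assigned with certainty.

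The 2 hairpin targets that the study designed are shown because any match to the 4 genes would bear on every knockdown value below. Each is written as the sense strand of 19 bases, and the capitals mark the site that pairs with guide bases 2 to 8.
shNAT10-1: ggccaaagctgTCTTGAAa
shNAT10-2: cagtgacgaccTAGATGAa
Both match the NAT10 coding sequence in full. On GRCh38 the first crosses the junction of exon 8 (base chr11:34118503-34118503) with exon 9 (chr11:34122459-34122476), and the second crosses the junction of exon 26 (chr11:34141805-34141817) with exon 27 (chr11:34142275-34142280), all on the forward strand. The seed-pairing site was not found in an annotated 3′UTR of CYP24A1, VDR, RXRA or RXRB, for either hairpin. Among tested genes with an annotated 3′UTR, 25.3% held the first site and 14.2% the second. The longest run that CYP24A1 shared with a target was 8 bases for shNAT10-1 and 7 for shNAT10-2, which 60.1% and 80.5% of genes reached or passed. VDR shared 9 and 8 bases (21.6% and 29.7% of genes), RXRA 6 and 7 (99.7% and 80.5%) and RXRB 7 and 6 (91.5% and 99.0%). The RXRA 3′UTR searched was a short one, since its long transcript is annotated as noncoding in that release.

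Levels are given as CPM, the counts of a gene set against the TMM-scaled total of its library (TMM is a normalization that trims extreme genes), from 15147805 to 17271336 counts per library. NAT10 itself checked the labels. Its mean of 122 ± 0.106 CPM in SW480 shControl went to 25.7 ± 3.06 CPM in shNAT10 (SD, n = 2 in each group), and that of 121 ± 0.404 CPM in DLD-1 shControl to 56.7 ± 3.25 CPM, a log2 fold change of -2.25 and -1.09 (edgeR quasi-likelihood test, adjusted p = 3.7e-09 and 2.7e-05). The fall in SW480 was the larger by 1.16 on the log2 scale (SE 0.118, adjusted p = 0.0015, edgeR). All 9 colorectal epithelial markers were counted, with KRT8 between 1562 and 3846 CPM and EPCAM between 131 and 656 CPM, while KRT20 was at most 0.234 CPM in SW480. Of 10 markers of blood, endothelial, stromal and glial cells, 8 had counts and 4 passed the filter on low counts; COL3A1 and CD3E stayed at or below 0.177 CPM, and CD68 was the highest at 17.3 to 30.7 CPM. The 2 SW480 shNAT10 libraries lay further apart than other replicate pairs, with a chi-square of 9.35 per degree of freedom against 3.21 to 4.44, so results in SW480 are also given without each of them.

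CYP24A1 mRNA was lower in every knockdown library than in the control libraries of the same line, and it was far more abundant in SW480 than in DLD-1. In SW480 it measured 26.0 and 26.6 CPM in the shControl libraries and 19.9 and 22.1 CPM in the shNAT10 libraries. In DLD-1 it measured 2.64 and 3.02 CPM in shControl and 1.71 and 2.30 CPM in shNAT10. The mean thus went to 80.0% of control in SW480 and 70.7% in DLD-1, log2 fold changes of -0.32 and -0.51, and -0.41 over both lines. These values chose the gene, so they stand as a description and were not tested. In these bulk libraries, fewer cells with the transcript and less of it per cell cannot be told apart. Of the 13619 genes tested, 27.5% had a negative fold change in both lines, which is what chose CYP24A1, and 6.26% lay below all control libraries of the same line in both, as CYP24A1 also did.

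The DLD-1 values rest on few reads. CYP24A1 had 45 and 51 counts in the shControl libraries of DLD-1 and 29 and 35 in the shNAT10 libraries. Their exact Poisson 95% intervals were 32.8 to 60.2, 38.0 to 67.1, 19.4 to 41.6 and 24.4 to 48.7 counts, which overlap, and such intervals cover counting error only. In SW480 the 443 and 454 control counts (402.7 to 486.2 and 413.2 to 497.7) lay above the 339 and 378 knockdown counts (303.9 to 377.1 and 340.8 to 418.1), and the interval of the higher knockdown library overlapped both control intervals. Leaving out shNAT10 replicate 1 or replicate 2 of SW480 gave log2 fold changes of -0.24 and -0.40 there. Leaving out the same replicates of DLD-1 gave -0.30 and -0.73.

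**Figure D1:**
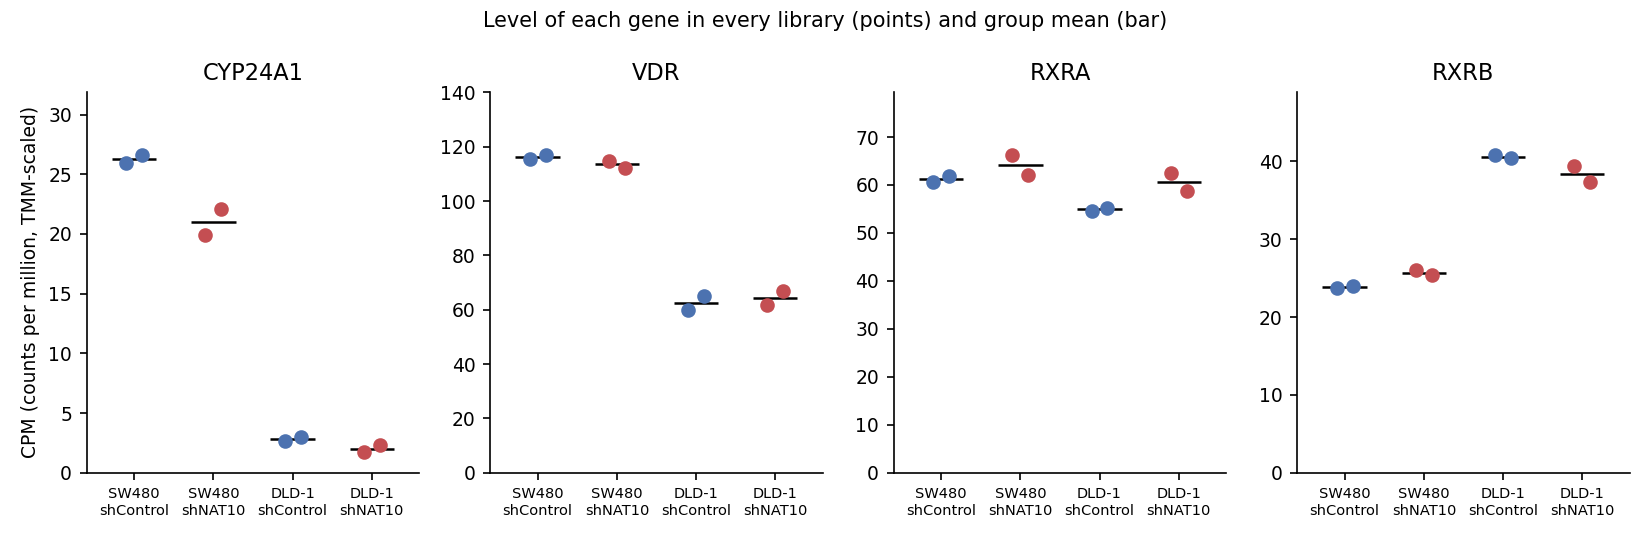
Level of CYP24A1, VDR, RXRA and RXRB in CPM (vertical axis, from 0) in the 4 groups; points are single libraries and bars are group means of 2 libraries. CYP24A1 points for shNAT10 lie below those for shControl in both lines (19.9 and 22.1 against 26.0 and 26.6 CPM in SW480), while the knockdown means of the receptor genes lie between 94.6% and 110% of control.

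The receptor genes did not pass the test in either line. VDR was at 97.7% of its control level in SW480 and 103% in DLD-1, RXRA was at 105% and 110%, and RXRB was at 108% and 94.6%. In SW480, 1.68% of all tested genes passed at an adjusted p under 0.05, in DLD-1 0.0147% and over both lines 1.02%, so few genes of any kind were called. Without adjustment, 19.3%, 5.96% and 14.5% of genes had a p under 0.05 in these comparisons, and none of the 3 receptor genes did. DESeq2 called none of them.

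VDR measured 116 and 117 CPM in the SW480 shControl libraries and 115 and 112 CPM in the shNAT10 libraries. The knockdown libraries were lower without overlap, which 26.2% of tested genes also showed in SW480. The log2 fold change was -0.03 (SE 0.0714, 95% interval -0.19 to 0.12, adjusted p = 0.84, edgeR). In DLD-1 it measured 60.0 and 65.0 CPM in shControl and 61.8 and 67.0 CPM in shNAT10, and the groups overlapped. Here the log2 fold change was 0.04 (SE 0.0753, interval -0.12 to 0.20, adjusted p = 0.99, edgeR). Over both lines the interval ran from -0.11 to 0.12 around 0.0046 (adjusted p = 0.996, edgeR), which is a ratio of knockdown to control between 0.929 and 1.08.

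RXRA, the retinoid X receptor most widely expressed in epithelia, measured 60.7 and 61.9 CPM in SW480 shControl and 66.2 and 62.1 CPM in shNAT10. In DLD-1 it measured 54.6 and 55.3 CPM in shControl and 62.5 and 58.7 CPM in shNAT10. Its knockdown libraries were thus the higher in both lines without overlap, as were those of 5.45% of tested genes. The log2 fold change was 0.06 in SW480 (SE 0.0733, interval -0.09 to 0.22, adjusted p = 0.67) and 0.14 in DLD-1 (SE 0.0743, interval -0.02 to 0.30, unadjusted p = 0.076, adjusted p = 0.88), both by edgeR. Over both lines it was 0.10 (SE 0.0522, interval -0.0085 to 0.22, unadjusted p = 0.068, adjusted p = 0.38, edgeR), positive in 4 of 4 knockdown libraries against the control means.

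RXRB, the second retinoid X receptor counted, had values of opposite sign in the lines, neither of which passed. It measured 23.7 and 24.0 CPM in SW480 shControl and 26.1 and 25.4 CPM in shNAT10, higher without overlap (21.7% of genes). In DLD-1 it measured 40.8 and 40.4 CPM in shControl and 39.5 and 37.4 CPM in shNAT10, lower without overlap (18.2% of genes). The log2 fold changes were 0.11 (SE 0.0818, interval -0.07 to 0.28, adjusted p = 0.49) and -0.08 (SE 0.0756, interval -0.24 to 0.08, adjusted p = 0.94), both by edgeR. With curated transcripts alone they were -0.15 and -0.11, of the same sign. The difference between lines was 0.19 (SE 0.111, interval -0.05 to 0.43) and did not pass (unadjusted p = 0.11, adjusted p = 0.59, edgeR), as for all but 0.00734% of genes. For VDR and RXRA the same difference was -0.08 each (adjusted p = 0.82 for both, edgeR), with intervals of -0.30 to 0.15 for each. Without SW480 shNAT10 replicate 1 or 2, the SW480 log2 fold change was -0.04 and -0.02 for VDR, 0.03 and 0.11 for RXRA and 0.099 and 0.13 for RXRB, with the lowest adjusted p at 0.37 (edgeR).

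**Figure D2:**
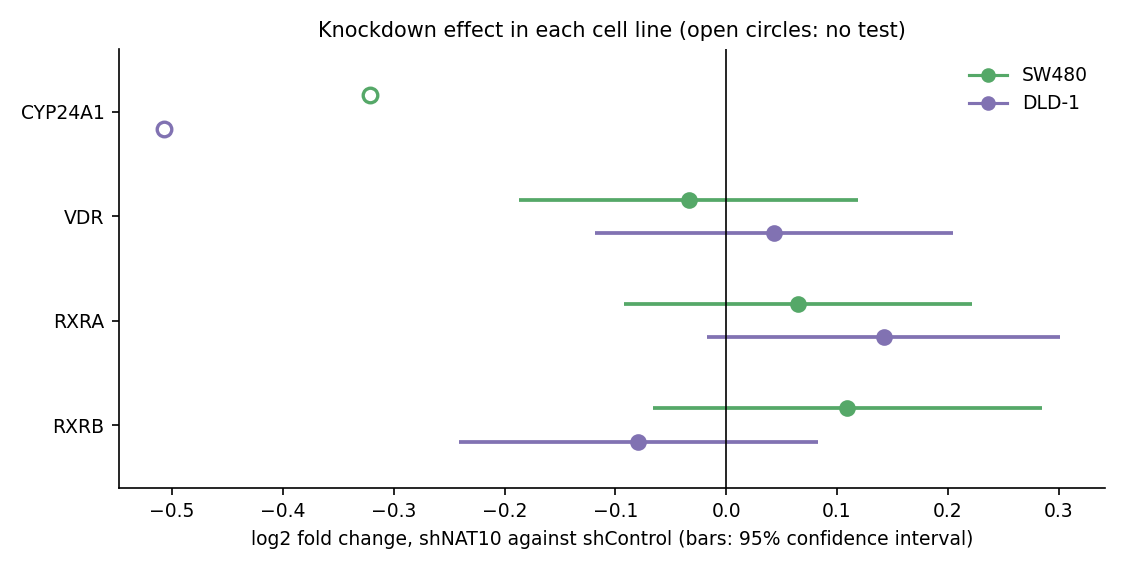
Log2 fold change of shNAT10 against shControl (horizontal axis) for each gene in SW480 (green) and DLD-1 (purple). Bars are 95% confidence intervals from the edgeR fit; those of VDR, RXRA and RXRB all cross 0. CYP24A1 is drawn as open circles at -0.32 and -0.51 without an interval because its values chose it.

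The control libraries of the lines were then compared, a contrast that did not choose the genes. SW480 held more CYP24A1 and more VDR, and less RXRB, while RXRA was not called. CYP24A1 was 9.26-fold higher in SW480 shControl (log2 fold change 3.21, SE 0.140, adjusted p = 3.6e-11, edgeR) and VDR 1.86-fold higher (0.89, SE 0.0736, adjusted p = 4.8e-08, edgeR). RXRB was at 58.7% of its DLD-1 level (log2 fold change -0.77, SE 0.0787, adjusted p = 5.5e-07, edgeR). RXRA did not pass, with 0.16 (SE 0.0740, interval -0.0009 to 0.32, adjusted p = 0.068, edgeR), although it did with upper-quartile scaling (0.18, adjusted p = 0.045, edgeR) or without SW480 shNAT10 replicate 1 or replicate 2 (0.157 and 0.156, adjusted p = 0.043 for each, edgeR). Because 73.8% of tested genes differed between the lines, 3 of 4 is near the background. As to size, 7.06% of genes were higher in SW480 by at least the log2 fold change of CYP24A1, and 32.7% differed in either direction by at least that of VDR. In the shNAT10 libraries, where 74.5% of genes differed, the same contrast gave 3.40 for CYP24A1, 0.82 for VDR, -0.58 for RXRB and 0.08 for RXRA (adjusted p = 6.3e-11, 1.3e-07, 1.0e-05 and 0.34, edgeR).

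Levels of different genes were compared per length, in FPKM summed over the transcripts of a gene, which the authors deposited for each library. CYP24A1, RXRB and VDR have no such value in SW480 shNAT10 replicate 2, whose deposited FPKM list stops part of the way, so 7 libraries were ranked. In all 3 SW480 libraries with values the order from high to low was VDR, RXRA, RXRB, CYP24A1. VDR stood at 27.2 and 27.7 FPKM in shControl and 26.1 in shNAT10 replicate 1, and RXRA at 11.5 and 11.9 against 12.3. RXRB at 9.39 and 9.31 and CYP24A1 at 8.70 and 8.90 were close neighbours in shControl, but CYP24A1 was at 6.58 in shNAT10 replicate 1 with RXRB at 9.71.

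In DLD-1 the order was RXRB, VDR, RXRA, CYP24A1 in 3 of 4 libraries. RXRB stood at 16.5 and 16.2 FPKM in shControl and 15.2 and 14.6 in shNAT10, and VDR at 14.3, 15.6, 14.7 and 16.5. VDR passed RXRB in shNAT10 replicate 2, so these neighbours were not separated beyond their spread. RXRA was lower in each library, at 10.3, 10.5, 11.9 and 11.2 FPKM. CYP24A1 was far below the receptor genes, at 0.85 and 0.95 FPKM in shControl and 0.57 and 0.75 in shNAT10. Set against VDR in the same library, CYP24A1 came to 32.0% and 32.2% of its FPKM in SW480 shControl, 25.2% in shNAT10 replicate 1, 5.94% and 6.10% in DLD-1 shControl and 3.87% and 4.54% in shNAT10. FPKM depends on which transcripts the reads were assigned to, and these differ between the lines as described next.

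**Figure D3:**
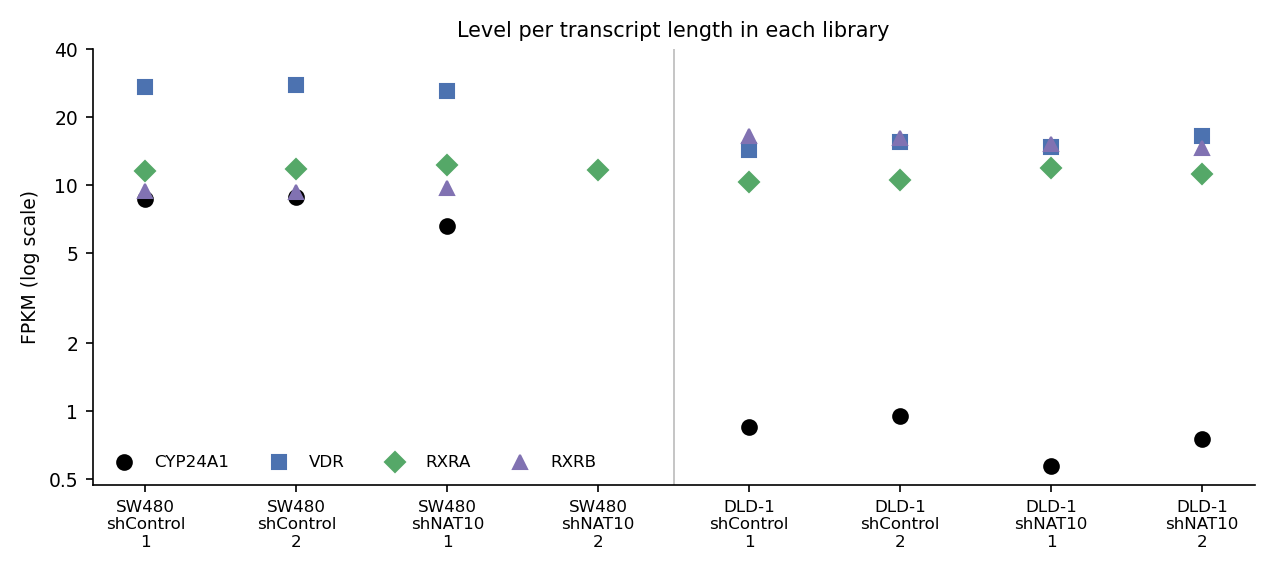
FPKM on a log axis (vertical) of the 4 genes in each library; SW480 shNAT10 replicate 2 has a value for RXRA only. VDR leads in SW480 (26.1 to 27.7 FPKM), RXRB and VDR lie together in DLD-1, and CYP24A1 drops from 6.58 to 8.90 FPKM in SW480 to 0.57 to 0.95 FPKM in DLD-1.

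The gene totals were split among RefSeq transcripts by the authors' estimate, and these shares were described without a test. CYP24A1 has 6 transcripts in the table, 2 curated (NM) and 4 predicted (XM). In SW480 the transcript NM_000782.5 held 245.7 and 224.3 estimated counts with the control hairpin and 132.9 and 108.5 with the knockdown, a larger drop than that of the gene total. The other curated transcript, NM_001128915.2, held 85.3 and 70.0 counts in control libraries and 113 and 91.3 with the knockdown, and the predicted XM_005260304.5 held 67.4 and 99.6 against 77.8 and 103. Within the SW480 total, the NM_000782.5 share was therefore 55.5% and 49.4% in control and 39.2% and 28.7% in knockdown libraries. In DLD-1 the reads went mainly to predicted transcripts: XM_005260304.5 held 23.2 and 40.3 counts in control and 5.43 and 22.3 in knockdown libraries. There NM_000782.5 held 0 and 0.07 counts in control and 12.9 and 1.77 in knockdown libraries, the opposite direction to SW480. With curated transcripts alone the DLD-1 fold change of CYP24A1 turned to 1.13 on the log2 scale, resting on 6.81 and 0.07 control counts and 12.9 and 1.77 knockdown counts.

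The receptor genes also had several transcripts. VDR has 8, of which NM_000376.3 and NM_001364085.2 carried the same estimate in every library, 729.5 and 720.9 counts each in SW480 shControl. NM_001374662.1 was the transcript with the largest VDR share in DLD-1 shControl, at 56.5% and 35.9%, against 18.2% and 17.8% in SW480 shControl. In SW480 its share was 24.8% and 28.5% after the knockdown, and in DLD-1 33.4% and 31.2%. RXRB reads moved between its 6 transcripts from library to library, so that NM_001270401.2 was at 0 in both DLD-1 control libraries and held 210.8 and 30.0 counts in the knockdown libraries, and no more can be read from a single transcript of this gene.

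RXRA was estimated far more evenly, with most counts in NM_002957.6 and a small share in NM_001291921.2. The shares of these transcripts are not separate observations. The third transcript, NM_001291920.1, had 0 counts in every DLD-1 library, so there each share mirrored the other. How many transcripts had a lower share in all knockdown libraries was not counted, so no background stands beside the NM_002957.6 shares. NM_002957.6 held 97.3% to 98.8% of the counts in the 4 control libraries and 95.1% to 96.6% in the 4 knockdown libraries. The minor NM_001291921.2 held 13.8 and 12.7 estimated counts in SW480 shControl and 41.0 and 47.5 in shNAT10. In DLD-1 it held 11.98 and 11.14 counts in control and 35.76 and 33.93 in knockdown libraries. Its share of the RXRA counts was thus between 1.19% and 1.33% in the 4 control libraries and between 3.37% and 4.48% in the 4 knockdown libraries, with no overlap in either line. This transcript was singled out after its values were seen. Compared were 20866 transcripts of genes with more than 1 transcript and at least 10 counts in every library. Of these, 202 (0.968%) had a higher share in all knockdown than in all control libraries. In this transcript the lowest knockdown share was 2.53 times the highest control share, and no other of them reached that ratio. That cutoff was its own ratio, so the rank describes how it was picked and is not a test. Transcripts under 10 counts in any library could not enter the comparison, and its control counts lay close to that floor. Read sequences were not analysed here, so where on the transcript these reads lie was not tested.

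In the rest of the vitamin D pathway, 1 gene passed the test with the knockdown. Of 28 VDR target genes counted (31 listed), 23 were tested. None passed in SW480 or in DLD-1 by edgeR, while 7 and 4 had a p under 0.05 before adjustment (30.4% and 17.4% of the list, against 19.3% and 5.96% of all genes, a difference that was not tested). DESeq2 called CDH1 in SW480 (adjusted p = 0.027) and none in DLD-1. Over both lines 1 gene passed, GADD45A, a p53 and vitamin D responsive gene of growth arrest and DNA repair, which is 4.35% of the list against 1.02% of all genes tested. The median log2 fold change of the 23 was 0.0018 in SW480 and 0 in DLD-1, against -0.0095 and 0 for all tested genes.

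GADD45A measured 199 and 169 CPM in SW480 shControl and 152 and 147 CPM in shNAT10, and 72.7 and 64.9 against 55.9 and 54.8 CPM in DLD-1. The knockdown libraries were below the control libraries in both lines, as they were for 6.26% of tested genes, CYP24A1 among them. Its log2 fold change over both lines was -0.30 (SE 0.0603, adjusted p = 0.030, edgeR), with -0.29 in SW480 (adjusted p = 0.086) and -0.31 in DLD-1 (adjusted p = 0.54). The call ended without SW480 shControl replicate 1 (adjusted p = 0.15), DLD-1 shControl replicate 1 (0.19), DLD-1 shNAT10 replicate 1 (0.20) or DLD-1 shNAT10 replicate 2 (0.15), with no filter on low counts (0.11), on FPKM (0.081 and 0.087) and with curated transcripts alone (0.20). CLDN2, which encodes a cation-permeable tight junction protein, went the other way, from 28.4 and 28.9 to 32.8 and 33.7 CPM in SW480 and from 7.93 and 8.05 to 10.5 and 9.78 CPM in DLD-1. It did not pass (log2 fold change over both lines 0.28, SE 0.0721, adjusted p = 0.085, edgeR). ATP2B1, the plasma membrane calcium pump, had -0.15 (adjusted p = 0.25, edgeR), and SERPINB1, among the most abundant of the list, had -0.08 (adjusted p = 0.54, edgeR).

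No gene of the enzymes and carriers that make and move vitamin D passed in a knockdown comparison, of 8 tested from 10 counted. This holds for edgeR and for DESeq2, and 1 gene, CYP2R1, had an unadjusted p under 0.05, in DLD-1 and over both lines. CYP27B1, the enzyme that makes calcitriol and so acts opposite to CYP24A1, measured 1.99 and 2.22 against 1.29 and 2.63 CPM in SW480 and 8.75 and 8.52 against 8.60 and 8.53 CPM in DLD-1. Its log2 fold change over both lines was -0.06 (adjusted p = 0.92, edgeR). CYP2R1, the main vitamin D 25-hydroxylase, had -0.15 over both lines (adjusted p = 0.31, edgeR). FDX1, a ferredoxin that passes electrons to mitochondrial P450 enzymes, had 0.05 (adjusted p = 0.74, edgeR), its relative FDX2 had 0.13 (adjusted p = 0.51, edgeR) and DHCR7, which removes the vitamin D precursor 7-dehydrocholesterol, had 0.06 (adjusted p = 0.58, edgeR). Of the other mitochondrial P450 enzymes, 4 were counted and 2 tested (CYP27A1 and CYP27B1), and neither passed in a knockdown comparison.

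Other nuclear receptors that pair with RXR, and the coregulators of the VDR-RXR complex, also had no call in the main edgeR fit or by DESeq2. Among 10 tested partners, 8 had a positive log2 fold change in SW480 (median 0.18) and 9 in DLD-1 (median 0.05), where the medians of all genes were -0.0095 and 0. Of the partners, 3 (30.0%) and 0 had an unadjusted p under 0.05, against 19.3% and 5.96% of all genes. RARG, a retinoic acid receptor, had 0.26 in SW480 (adjusted p = 0.13, edgeR) and 0.03 in DLD-1. The thyroid hormone receptor THRA had 0.20 over both lines (adjusted p = 0.28, edgeR) and PPARG, a lipid-sensing receptor, 0.11 (adjusted p = 0.39, edgeR). Of 15 coregulators, 11 had a negative value in SW480 (median -0.14) and 11 a positive one in DLD-1 (median 0.06), with 4 (26.7%) and 1 (6.67%) at an unadjusted p under 0.05, beside the same 19.3% and 5.96%. EP300, a histone acetyltransferase, had -0.24 in SW480 and 0.13 in DLD-1, and the corepressor NCOR1 had -0.20 and -0.01. None of these passed in the main fit. The SW480 shNAT10 libraries lay apart, with EP300 at 118 and 167 CPM against 156 and 180 CPM in control. Without SW480 shNAT10 replicate 2 the SW480 values were -0.51 for EP300 and -0.33 for NCOR1. With a replicate block both passed in SW480 (-0.26 and -0.21, adjusted p = 0.019 and 0.025, edgeR). No epithelial marker passed in a knockdown comparison in the main edgeR fit. Before adjustment, 3 of the 9 (33.3%) had a p under 0.05 in SW480 and 0 in DLD-1, against 19.3% and 5.96% of all genes. No tested marker of other cell types passed. Of these 4, 1 had a p under 0.05 before adjustment, in SW480 and over both lines, ACTA2, a smooth muscle actin. It measured 2.75 and 2.81 against 4.41 and 4.74 CPM in SW480 and 2.94 and 3.20 against 4.65 and 3.35 CPM in DLD-1. Its adjusted p was 0.091 in SW480, 0.88 in DLD-1 and 0.093 over both lines (edgeR). The difference of the EP300 values between lines was -0.37 (adjusted p = 0.54, edgeR), and -0.64 without SW480 shNAT10 replicate 2. SMARCA4, a chromatin remodeler, had 0.13 over both lines and TBL1X, a corepressor subunit, -0.17 (adjusted p = 0.25 and 0.27, edgeR).

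Many genes of the pathway differed between the control lines, although THRA, CREBBP and DHCR7 were among those that did not pass (log2 fold changes of 0.05, -0.03 and 0.08). Of the 8 tested genes of vitamin D synthesis and transport, 5 were higher in SW480 and 1 lower, against 38.1% and 35.6% of all genes. CYP27B1 was the lower one, at 1.99 and 2.22 CPM in SW480 against 8.75 and 8.52 CPM in DLD-1 (log2 fold change -2.03, SE 0.217, adjusted p = 8.6e-07, edgeR), so the line with more CYP24A1 had less of the enzyme that makes its substrate. CYP27A1, a sterol 27-hydroxylase, measured 3.63 and 3.22 CPM in SW480 and at most 0.117 CPM in DLD-1. Of the 23 VDR target genes, 13 were higher in SW480 and 7 lower, 87.0% against the 73.8% of all genes. DKK1 and DKK4, secreted Wnt inhibitors, were at 0 counts in all DLD-1 libraries and at a mean of 14.1 and 33.7 CPM in SW480 shControl, at least 79.8-fold and 190-fold higher when 3 counts per DLD-1 library are taken as the floor. FBP1, a gluconeogenic enzyme, went the other way, with 20.6 and 18.5 CPM in DLD-1 and at most 0.117 CPM in SW480, and CDH1, the epithelial cadherin, was lower in SW480 by 2.16 on the log2 scale (SE 0.0707, adjusted p = 1.4e-12, edgeR).

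Called genes of the remaining lists stand beside 38.1% higher and 35.6% lower, 73.8% in all, among all genes. Among the 10 RXR partners 4 were higher in SW480 and 3 lower (70% called), led by NR4A2 (0.234 CPM in both SW480 shControl libraries against 5.29 and 3.73 CPM in DLD-1), RARA (1.26, adjusted p = 9.8e-08, edgeR) and RARG (-1.18, adjusted p = 5.7e-09, edgeR). Of the 15 coregulators 9 were higher and 4 lower (86.7% called), with NCOR1 at 1.47, NCOA1 at 1.07 and EP300 at 0.88 on the log2 scale (adjusted p = 8.4e-10, 1.4e-07 and 1.9e-05, edgeR). All 9 epithelial markers differed, 7 of them lower in SW480. Of the 4 tested markers of other cell types, 3 were higher in SW480, among them CD68 by 0.59 and COL1A1, which measured 2.29 and 2.11 CPM there against 0.117 and 0.592 in DLD-1; their part in the results was not tested.

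**Figure D4:**
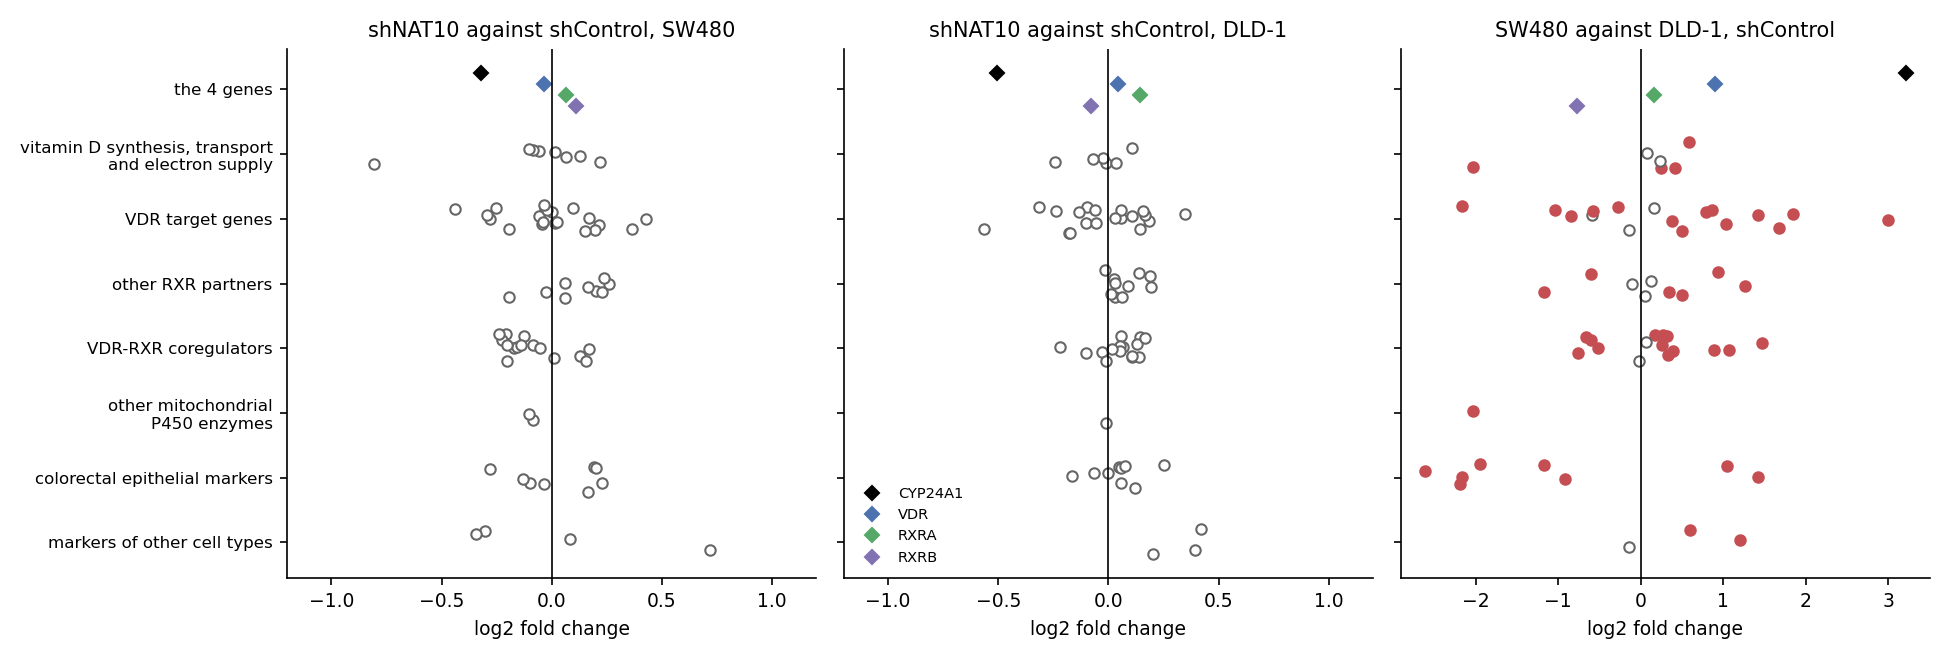
Log2 fold change (horizontal axis) of the 4 genes (diamonds) and of the genes of each list (circles; filled where the edgeR adjusted p was under 0.05) for the knockdown in SW480, the knockdown in DLD-1 and SW480 against DLD-1 in shControl. Genes with a mean under 10 counts in a line used are not drawn, heights within a row are random, and no circle is filled in the knockdown panels because GADD45A passed over both lines together and in neither line alone.

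Genes whose level over the 8 libraries was most like that of CYP24A1 were ranked by Pearson's r of log2 CPM (prior count 2), given without a p since the libraries fall into 2 lines. The 5 closest were MAMLD1, ADAM22, ITPR1, RUBCNL and LRIG1, with r from 0.9987 to 0.9990 over 8 libraries. Such values are common here, because 3039 of 13618 genes (22.3%) had r of at least 0.95, and the points share their line, hairpin and depth. VDR stood at r = 0.988 (rank 815), RXRA at 0.576, RXRB at -0.981 and NAT10 at -0.196. Of the 5, ITPR1, a calcium release channel of the endoplasmic reticulum, had log2 fold changes of -0.63 in SW480 and -0.61 in DLD-1 and LRIG1, a negative regulator of growth factor receptors, -0.19 and -0.59. They were picked for their likeness, so these values are not independent of CYP24A1.

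Protein-coding genes within 500 kb of CYP24A1 were PFDN4, BCAS1 and DOK5 in GENCODE release 29. PFDN4, a subunit of the prefoldin chaperone, lies next to it at chr20:54207847-54228052 and had log2 fold changes with the knockdown of 0.14 in SW480 and -0.10 in DLD-1 (adjusted p = 0.37 and 0.93, edgeR). It was higher in SW480 shControl by 1.15 (adjusted p = 2.5e-08, edgeR), the direction of CYP24A1. BCAS1, at chr20:53936777-54070594, had the opposite direction, with 0.0879 CPM in SW480 shControl and 6.51 CPM in DLD-1 shControl. DOK5 had too few counts to be tested.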

How the data were processed

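RNA of SW480 and DLD-1 cells with shControl or shNAT10 was poly(A)-selected and sequenced single-end on the BGISEQ-500 by BGI, with 2 libraries per group. The submitters' processing notes name HISAT2 2.0.4, Bowtie2 2.2.5, RSEM 1.2.12 and hg38, without their roles. The authors deposited expected counts (RSEM estimated counts) per RefSeq transcript, not normalized, and FPKM per library from the same processing; for SW480 shNAT10 replicate 2 the FPKM list leaves 14655 of 78953 transcripts (18.6%) without a value. Counts were summed per gene and rounded although counts per gene had been foreseen; symbols came from RefSeq for 99.3% of genes. Genes were filtered with filterByExpr (minimum count 10, minimum total 15), which left 13619, scaled by TMM and fitted as 4 groups without a replicate term with edgeR 4.0.16 in R 4.3.3 (biological coefficient of variation 0.0585). Calls used Benjamini-Hochberg adjusted p under 0.05 over all tested genes. SE is the absolute log2 fold change over the square root of F. The fit was checked on simulated counts with the same spread for all genes and groups. How often a change of a given size would be called at the spread of each gene and group here was not tested.

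The members and lists were chosen with earlier results of these data known. Named were NAT10, the 4 genes, list genes called with the knockdown, then in each list up to 3 with the smallest p, the 3 most abundant and the 3 called with the largest difference between control lines, the 5 genes most like CYP24A1 and genes within 500 kb. CYP24A1's knockdown contrast chose it and was not tested. Alternatives were DESeq2 1.42.0, upper-quartile scaling, other filters, lines fitted alone, a replicate block, limma-trend (limma 3.58.1) on log2(FPKM + 1) or log2(FPKM + 0.1), curated transcripts only and leaving out each library; the shNAT10 libraries for the line contrast were added after the data were seen. The replicate numbers are shared between groups, and the labels do not say that they mark a shared batch. Python 3.11.15 with numpy 2.4.6, pandas 2.3.3 and matplotlib 3.10.9 made the sums and figures. Hairpin targets came from the study's supplementary table and were placed on GENCODE release 29.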

Additional observations from a re-analysis of the deposited data

Results flagged for a closer look

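In RXRB the knockdown libraries of SW480 all lay above and those of DLD-1 all lay below the control libraries of their line. In SW480 21.7% of tested genes were higher in this way, and in DLD-1 18.2% were lower. The difference in log2 fold change of 0.19 did not pass (unadjusted p = 0.11, adjusted p = 0.59, edgeR). With curated transcripts alone the values had the same sign, -0.15 in SW480 and -0.11 in DLD-1.

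CDH1, the epithelial cadherin and a member of 2 of the lists, had the reverse pattern, with 94.1 and 100.8 CPM in SW480 shControl against 75.9 and 84.4 CPM in shNAT10, and 434.5 and 439.5 against 462.4 and 446.4 CPM in DLD-1. Its log2 fold change in SW480 was lower than that in DLD-1 by 0.34, written as a difference of -0.34, with an unadjusted p of 0.0037 and an adjusted p of 0.47 (edgeR), so it did not pass over all genes. Without SW480 shNAT10 replicate 2 the difference was -0.42 (adjusted p = 0.038, edgeR), and 170 lower and 176 higher genes then passed in this comparison in place of 1 and 0.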

How the results depend on the processing

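VDR, RXRA and RXRB stayed above an adjusted p of 0.05 in every knockdown comparison under every alternative run that gave one, and CYP24A1, VDR and RXRB kept their call between the control lines. Of the results under alternatives, 948 kept direction and call, 64 counts of genes were lower, 58 results were higher or newly called, 14 changed sign and 3 untested values moved. With curated transcripts only, CYP24A1 had log2 fold changes of 1.13 in DLD-1 and 0.33 over both lines and RXRB of -0.15 in SW480, -0.13 over both and -0.039 for the difference of lines. On log2(FPKM + 1) CYP24A1 had -0.20 in DLD-1, against -0.40 on log2(FPKM + 0.1). VDR and RXRB had -0.0049 and -0.038 over both lines on log2(FPKM + 1), and -0.0044 and -0.039 on log2(FPKM + 0.1). The VDR and RXRB values rest on 1 SW480 shNAT10 library. RXRA passed between the lines at 0.18 with upper-quartile scaling. Unless shown above, the cause was not tested.

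The number of genes called moved most. In SW480, 123 genes were lower and 106 higher; without a filter 21 and 20 were, with each line fitted alone 13 and 16, on log2(FPKM + 1) 25 and 24, on log2(FPKM + 0.1) 20 and 17, with curated transcripts 8 and 14, and with DESeq2 167 were higher. In DLD-1, 2 were lower and 0 higher, against 5 and 10 with DESeq2, 13 and 25 with the line alone, 1 lower without a filter and on log2(FPKM + 1), and 1 lower and 2 higher on log2(FPKM + 0.1) and with curated transcripts. Over both lines 77 were lower and 62 higher, against 22 and 25 without a filter, 16 and 15 on log2(FPKM + 1), 16 and 16 on log2(FPKM + 0.1) and 9 and 14 with curated transcripts, and 113 higher with DESeq2. For the difference, 1 was lower and 0 higher, against 8 and 12 with DESeq2 and 0 lower on FPKM and with curated transcripts. DESeq2 called 1 VDR target and 1 epithelial marker in SW480, in each case CDH1; without a filter, on FPKM and with curated transcripts 0 VDR targets passed over both lines, and curated transcripts left 1 of 3 markers of other cell types between the lines.

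Samples with the same replicate number deviated together with a correlation of 0.128 in SW480 and 0.0363 in DLD-1, which does not show that the numbers pair the samples, and the labels name no shared batch. With the replicate block, 822 genes were lower and 650 higher in SW480, 30 and 33 in DLD-1, 361 and 325 over both lines and 50 and 62 for the difference. In the lists it called 4 VDR targets, 1 RXR partner, 4 coregulators, 1 epithelial marker and 1 marker of other cell types in SW480, and 2, 0, 1, 0 and 1 of them over both lines; it changed no call of the 4 genes.

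When a library was left out, its group kept 1 library, assumed to vary like the others. CYP24A1 then ranged from -0.73 to -0.30 in DLD-1, VDR from -0.016 to 0.10 in DLD-1 (-0.0094 without shControl replicate 1) and from -0.025 to 0.034 over both lines (-0.016 without DLD-1 shControl replicate 1), and RXRB from -0.0054 to 0.034 over both lines. RXRA between the control lines ranged from 0.14 to 0.17 and passed without SW480 shNAT10 replicate 1 or 2 (0.157 and 0.156). Genes called ranged from 8 to 1131 lower and 9 to 1031 higher in SW480, 1 to 10 and 0 to 20 in DLD-1, 13 to 604 and 12 to 553 over both lines, and 0 to 170 and 0 to 176 for the difference; the highest values came without SW480 shNAT10 replicate 2, except the 20 in DLD-1, without replicate 1, and each other library left fewer calls in SW480. Called list genes in SW480 ranged from 0 to 1 for synthesis and transport, 0 to 3 for VDR targets, 0 to 1 for RXR partners, 0 to 4 for coregulators and 0 to 3 for epithelial markers. Over both lines they ranged from 0 to 4 for VDR targets and 0 to 1 for RXR partners, coregulators and epithelial markers, and for the difference from 0 to 1, 0 to 2 and 0 to 1 for VDR targets, coregulators and epithelial markers.

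With 2 libraries per group, a change of the size seen in CYP24A1 cannot be judged from DLD-1 alone at 29 to 51 counts. The receptor intervals reach from -0.24 to 0.30 on the log2 scale in single lines, and from -0.11 to 0.22 over both lines. Changes of VDR, RXRA or RXRB within their intervals cannot be told from no change here. Larger ones could also miss the adjusted threshold, as GADD45A did at -0.31 in DLD-1 (adjusted p = 0.54, edgeR). Protein and hormone levels were not measured in these libraries.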
